A study of Mus musculus with 12 samples.

Results

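The stefin A genes of mouse chromosome 16 were described here as a group of 6 neighbouring genes (Stfa1, Stfa2, Stfa2l1, Stfa3, BC100530 and BC117090) in bone marrow RNA sequencing. They were listed by name, and all 6 were found among the 21853 genes of the expression table. The family was chosen by its FPKM values in an earlier analysis of the same libraries, in which it was high in irradiated, DEIX-treated marrow against irradiated marrow. That comparison, and each one that shares its libraries, is therefore given for the 6 genes as values with no test. Only the comparison of DEIX with control marrow shares no library with it, and it alone was tested for them, although the test takes its error from all 12 libraries.

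Whole bone marrow cells of B6 mice were sequenced in 4 groups of 3 libraries. Control mice were not irradiated, and the labels name no vehicle for them. TBI mice received 5 Gy of total body irradiation with gamma rays at 0.66 Gy/min and then olive oil, the vehicle, by gavage in a volume of 100 µL, and marrow was taken 14 days after irradiation. TBI+DEIX mice received the same irradiation and DEIX (deinoxanthin, a carotenoid of radiation-resistant Deinococcus bacteria) by mouth at 25 mg/kg once a day for 14 days. DEIX mice received the compound with no irradiation. Nothing in the labels says that the libraries of a group came from separate animals, so p-values measure the spread between these libraries, which may be technical.

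Stefins are the intracellular branch of the cystatin superfamily. They are small, single-domain proteins without a signal peptide that fit into the active-site cleft of papain-like cysteine proteases, the cathepsins, and block them reversibly. Humans have a lone stefin A gene, CSTA, whereas the mouse carries a cluster of tandem copies that are transcribed largely in myeloid cells, and Stfa2l1 is a common marker of mature mouse neutrophils.

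In the GENCODE vM21 annotation (GRCm38) the 6 genes spanned 298.6 kb, at chr16:36156811-36455392, and each had 3 exons. Stfa2l1 (36156811 to 36161953) and Stfa1 (36276951 to 36285373) lay on the plus strand, followed by BC117090 (36321665 to 36334332), BC100530 (36359382 to 36367748), Stfa2 (36403992 to 36408457) and Stfa3 (36450537 to 36455392) on the minus strand. BC100530 and BC117090 are named Cstdc5 and Cstdc6 in RefSeq. Gm5483 (36184212 to 36188111, Cstdc4 in RefSeq), a further stefin gene that is no member of the group, lay between Stfa2l1 and Stfa1.

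The coding sequences of the 6 genes were 288 to 384 bases long. Over 15 pairs their identity ran from 77.7% to 97.9%, with a median of 81.6%. Stfa1 and BC100530 were identical at 285 of 291 aligned bases, BC100530 and BC117090 at 277 of 288, and Stfa2 and Stfa2l1 at 298 of 309. Stfa3 stood apart, and its closest member, Stfa1, matched it at 84.5%. This bears on how far reads can be assigned to 1 gene: of the exact 50-base stretches of each transcript, 33.7% of BC117090, 33.5% of BC100530, 25.4% of Stfa1, 24.6% of Stfa2l1 and 15.9% of Stfa2 also occurred in a transcript of another gene, and 0% of Stfa3 did. Stfa3 is thus the member whose value rests on no shared stretch of that length. How reads that fit several copies were assigned is not given in the sources used here, so the members are also given as a sum.

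The start regions of the copies are alike too. RefSeq promoter windows (GRCm38.p6) matched 5 of the 6 genes, BC117090 being the exception, and over the 250 bases before the start the 10 pairs were 82.2% to 96.1% identical. The windows of Stfa2l1 and Stfa3 are shown because they are the 2 that overlap no annotated exon and because these genes were the least and among the most altered of the family in the irradiated, treated marrow. Capitals mark the 6 runs of at least 10 bases that were present in all 5 windows.
Stfa2l1, chr16:36156561-36156810, plus strand: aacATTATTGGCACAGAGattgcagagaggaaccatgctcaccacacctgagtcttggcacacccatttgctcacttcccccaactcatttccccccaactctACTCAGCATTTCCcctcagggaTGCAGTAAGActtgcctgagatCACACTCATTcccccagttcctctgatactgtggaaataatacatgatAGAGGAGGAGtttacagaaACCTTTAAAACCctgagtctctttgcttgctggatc
Stfa3, chr16:36455393-36455642, minus strand: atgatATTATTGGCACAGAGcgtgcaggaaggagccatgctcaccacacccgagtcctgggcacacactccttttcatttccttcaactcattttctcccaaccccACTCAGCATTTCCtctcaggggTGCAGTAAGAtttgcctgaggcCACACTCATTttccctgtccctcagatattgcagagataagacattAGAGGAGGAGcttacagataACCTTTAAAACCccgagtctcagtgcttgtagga
The run ATTATTGGCACAGAG occurred, on either strand, in 5 of 32851 promoter windows of the mouse RefSeq table (250 bases before to 50 after the start), and those 5 were the stefin A genes. ACCTTTAAAACC occurred in 11 windows (0.0335%), and its first base lay 32 to 36 bases before the start in Stfa1, Stfa2, Stfa2l1 and Stfa3 and 12 bases before it in BC100530. That run holds TTTAAAA, a variant TATA box, which 8.74% of all windows contained, whereas the canonical TATAAAA was in 0 of the 5 windows and in 5.48% of all. Of motifs of myeloid factors searched on both strands, the C/EBP half-site pair TTGCNNAA was in 2 of the 5 windows and in 10.8% of all, the PU.1 motif GAGGAAGT in 0 and 3.2%, and the STAT motif TTCNNNGAA in 0 and 8.3%. These are matches of letters only. The start used here is that of RefSeq. In Stfa1, BC100530 and Stfa2, 197, 178 and 94 of the 250 bases before it, those nearest the start, lay in GENCODE exons. The run with the variant TATA box therefore lies inside the GENCODE transcript in these genes.

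The deposited values are FPKM, fragments scaled to transcript length and to the mapped total of the library, so levels of different genes can be set side by side. Between 10359 and 10832 genes reached 1 FPKM in a library. A gene was tested where it reached 1 FPKM in at least 3 of the 12 libraries, which left 10994 genes. All 6 stefin A genes passed, but BC117090 did so only through the 3 TBI+DEIX libraries and DEIX replicate 2, while the other 5 reached 1 FPKM in all 12. Marrow genes were abundant in control libraries, such as Elane of granulocyte precursors (1069 ± 214 FPKM, SD, n = 3), Cd79a of B cells (109 ± 16.3 FPKM) and the globin gene Hba-a1 (2273 ± 758 FPKM). A list of 9 keratinocyte genes, fixed because epidermis also makes stefins, stayed under 1 FPKM in all 12 libraries, with Krt5 and Krt14 at 0. TBI+DEIX replicate 1 stood apart, with the lowest library weight (0.0709) when limma weighted the 12 libraries by their fit to their groups, and the difference of the sum is given with and without it.

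In control marrow the 6 genes together made 327, 378 and 410 FPKM in replicates 1 to 3. Stfa2l1 alone supplied 79.0% ± 0.98 (SD, n = 3) of that. Its level was 259, 302 and 319 FPKM, above the other 5 in each control library. Stfa3 (25.7, 29.3 and 34.1 FPKM) and Stfa1 (20.2, 25.8 and 30.3 FPKM) came next and overlapped. BC100530 followed at 13.5, 13.4 and 16.2 FPKM, Stfa2 at 7.94, 7.45 and 9.55 FPKM, and BC117090 at 0.531, 0.683 and 0.574 FPKM. Apart from Stfa3 and Stfa1, no neighbours in this order overlapped between control libraries.

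**Figure D1:**
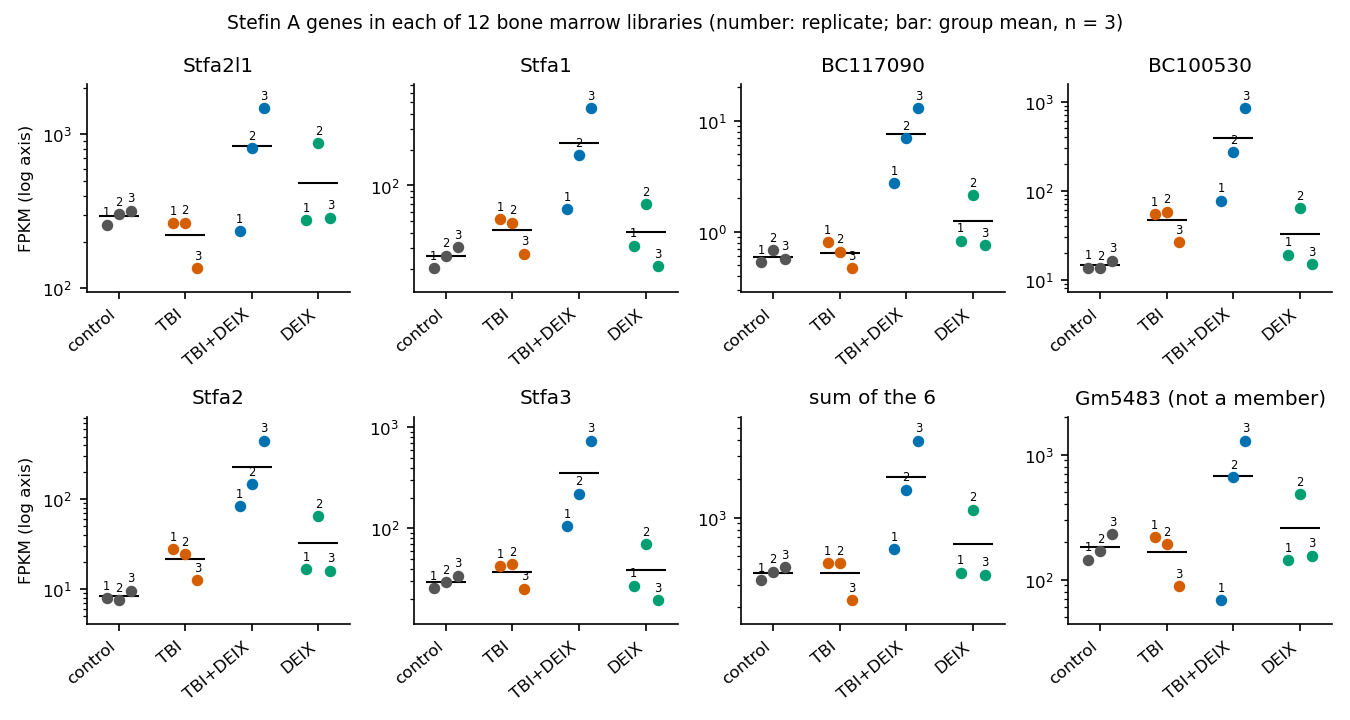
FPKM on a log axis (vertical) of each stefin A gene, of their sum and of the neighbour Gm5483 by group (horizontal), with 1 numbered point per library and a bar at the mean of 3 libraries. TBI+DEIX replicates 2 and 3 and DEIX replicate 2 are above each control library in each panel, while TBI+DEIX replicate 1 is above them for 5 members but not for Stfa2l1 (236 FPKM) or Gm5483 (68.2 FPKM).

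By group means, the irradiated, treated marrow held the most stefin A RNA. The sum of the 6 genes was 442, 443 and 226 FPKM in TBI replicates 1 to 3, and 567, 1642 and 3955 FPKM in TBI+DEIX replicates 1 to 3. Each TBI+DEIX library thus lay above each TBI library, but the TBI+DEIX libraries differed 6.97-fold among themselves. The difference of the group means of log2(FPKM + 1) was 2.12 (SE 0.63), a 4.35-fold difference on that scale. It was 2.84 without TBI+DEIX replicate 1 and 1.44 without replicate 3. In bulk marrow, more cells that make stefins and more stefin RNA per cell cannot be told apart. Markers of other cell types also differed in level: the summed level of 14 erythroid genes was 2457 to 9879 FPKM in TBI and 501 to 2174 FPKM in TBI+DEIX, and that of 12 B cell genes 32.1 to 390 FPKM and 8.30 to 192 FPKM, so that the B cell sums overlapped. The sum of 16 monocyte and macrophage genes was 1564 to 2454 FPKM in TBI and 951 to 2942 FPKM in TBI+DEIX and overlapped too. Limma called 3 erythroid genes lower, 0 B cell genes (0 at an unadjusted p under 0.05), and 5 monocyte and macrophage genes, of which Klf4, Fn1 and Irf8 were lower and the complement genes C1qa and C1qb higher, beside 8.1% of all tested genes called in either direction. Their part in the stefin values was not tested.

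Stfa2 differed most between these groups. It measured 27.9, 24.3 and 12.6 FPKM in TBI and 84.0, 147 and 449 FPKM in TBI+DEIX, a log2 difference of 3.05 (SE 0.61). Stfa3 measured 42.1, 44.3 and 25.4 FPKM in TBI and 105, 221 and 737 FPKM in TBI+DEIX, a log2 difference of 2.80 (SE 0.61). For both genes the lowest TBI+DEIX library was more than 2 times the highest TBI library. Stfa3 shares no exact 50-base stretch with another transcript, but how its reads were assigned was not tested.

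The near-identical Stfa1, BC100530 and BC117090 followed. BC100530 went from 54.6, 58.0 and 26.3 FPKM in TBI to 76.9, 269 and 838 FPKM in TBI+DEIX (log2 difference 2.54, SE 0.74). Stfa1 went from 51.8, 48.6 and 26.8 FPKM to 63.3, 180 and 443 FPKM (log2 difference 2.05, SE 0.60). In both, TBI+DEIX replicate 1 was only just above the TBI libraries. BC117090, the weakest member, went from 0.802, 0.662 and 0.469 FPKM to 2.73, 6.96 and 12.9 FPKM (log2 difference 2.19, SE 0.38). Its levels under 1 FPKM in TBI make the size of that difference depend on the added constant, and it was 3.13 with 0.1 FPKM added.

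Stfa2l1, the most abundant member in control marrow, overlapped between the groups. It measured 265, 268 and 135 FPKM in TBI and 236, 818 and 1475 FPKM in TBI+DEIX, a log2 difference of 1.63 (SE 0.61). TBI+DEIX replicate 1 thus lay inside the range of TBI. Of the 6 genes, 5 were higher in each TBI+DEIX library than in each TBI library, a state that 14.5% of all tested genes shared. This contrast chose the genes, so nothing is read from the count. The lowest and highest differences with 1 library left out were those without TBI+DEIX replicates 3 and 1: 2.38 and 3.59 for Stfa2, 2.04 and 3.44 for Stfa3, 1.70 and 3.41 for BC100530, 1.73 and 2.68 for BC117090, 1.37 and 2.76 for Stfa1, and 1.05 and 2.37 for Stfa2l1. The median log2 difference was 2.36 over the 6 genes and 0.003 over all 10994 tested.

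**Figure D2:**
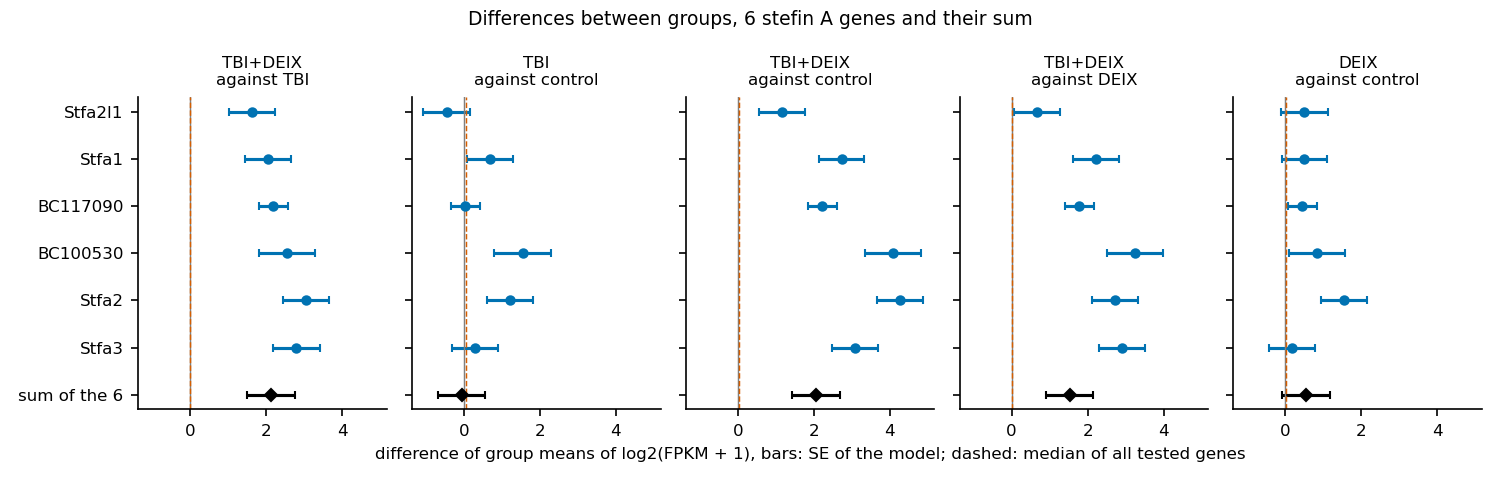
Differences of group means of log2(FPKM + 1) (horizontal) for the 6 genes and their sum (vertical) in 5 comparisons, with the SE of the model as bars and the median of all tested genes as a dashed line. Stfa2l1 sits lowest among the members in the 3 comparisons with TBI+DEIX, and the sum lies at -0.06 for TBI against control although BC100530 and Stfa2 lie at 1.54 and 1.21.

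After irradiation and oil vehicle the sum was close to control while the shares of some members, Stfa2l1 and BC100530 among them, were not. The labels name no vehicle for control mice, so irradiation and gavaged oil cannot be told apart in this comparison. The log2 difference of the sum between TBI and control was -0.06 (SE 0.63). BC100530 went from 13.4 to 16.2 FPKM in control to 26.3 to 58.0 FPKM in TBI, a log2 difference of 1.54 (SE 0.74). Stfa2 went from 7.45 to 9.55 FPKM to 12.6 to 27.9 FPKM, a log2 difference of 1.21 (SE 0.61). These were the 2 members of 6 that were higher in each TBI than in each control library, against 22% of all tested genes. The other 4 overlapped, with log2 differences of 0.68 for Stfa1, 0.29 for Stfa3, 0.04 for BC117090 and -0.46 for Stfa2l1. TBI replicate 3 was the lowest TBI library for all 6 genes, and without it the sum differed from control by 0.26, Stfa2l1 by -0.13 and Stfa3 by 0.53. Without TBI replicate 2 those of Stfa2l1 and Stfa3 were -0.63 and 0.14.

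Within the sum, Stfa2l1 supplied 59.9%, 60.3% and 59.6% in TBI replicates 1 to 3. These shares are close to each other although the sum itself differed 1.96-fold between those libraries. In control marrow the share was 77.9% to 79.8%, in DEIX marrow 74.6% to 80.0% and in TBI+DEIX marrow 37.3% to 49.8%. The 6 libraries of irradiated mice therefore all lay below the 6 of unirradiated mice. BC100530 did the reverse, at 3.54% to 5.57% of the sum in unirradiated and 11.6% to 21.2% in irradiated mice. Stfa3, with no shared stretch of 50 bases, supplied 5.38% to 8.31% and 9.52% to 18.6%. Stfa2 supplied 1.97% to 5.62% without and 5.48% to 14.8% with irradiation, ranges that overlapped, since DEIX replicate 2 (5.62%) exceeded the lowest TBI library. Shares of 1 sum are tied together, so that a lower share of Stfa2l1 raises those of the others. In FPKM, Stfa3 overlapped between TBI (25.4 to 44.3) and control (25.7 to 34.1). These shares use the libraries that chose the family and were not tested.

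**Figure D3:**
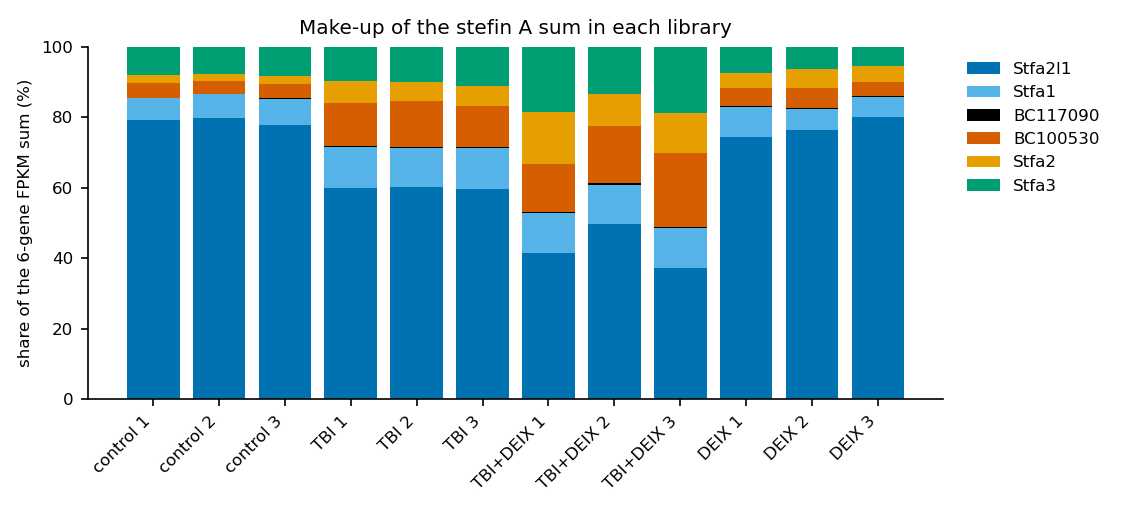
Share of the summed FPKM of the 6 genes (vertical, in percent) that each gene supplied in each of the 12 libraries (horizontal). Stfa2l1 takes 74.6% to 80.0% in the 6 libraries of unirradiated mice, 59.6% to 60.3% in TBI and 37.3% to 49.8% in TBI+DEIX.

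In unirradiated mice given DEIX, 1 library of 3 had high stefin A levels. Since the labels name no vehicle for control mice, DEIX and the way it was given cannot be told apart against control. The sum was 373, 1148 and 360 FPKM in DEIX replicates 1 to 3, so that replicates 1 and 3 lay within the control range and replicate 2 at 3.09 times the control mean. Stfa2l1 measured 278, 878 and 288 FPKM, Stfa3 27.2, 70.2 and 19.4 FPKM, and Stfa1 31.2, 69.3 and 21.1 FPKM. Replicate 2 was the highest DEIX library for each, and it alone exceeded the control libraries for Stfa2l1 and Stfa3, while Stfa1 in replicate 1 was also just above them. BC100530 measured 19.0, 63.9 and 14.8 FPKM, and replicate 3 lay within the control range. Stfa2 at 16.6, 64.5 and 16.04 FPKM and BC117090 at 0.831, 2.15 and 0.756 FPKM were above the highest control library in all 3 replicates. In replicate 2 Stfa2l1 made 76.5% of the sum, a share like that of the control libraries, whereas TBI+DEIX replicate 2, with a similar Stfa2l1 level (818 FPKM), had 49.8%.

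Of the 5 genes that reached 1 FPKM in all 12 libraries, 0 passed the test for DEIX against control (limma, Benjamini-Hochberg adjusted over 10994 genes). By comparison 796 genes, 7.24% of those tested, were called, 4.52% as higher. With limma's array weights 1 of the 5 passed, Stfa2 (1.36, adjusted p = 0.0171), but so did 4508 of the 10994 genes. Stfa2 came nearest, with a log2 difference of 1.54 (95% interval 0.13 to 2.95), an unadjusted p of 0.0285 and an adjusted p of 0.148, higher in 3 of 3 DEIX libraries. It was the 1 member with an unadjusted p under 0.05, as 2718 of all tested genes had. For the other 4 the adjusted p was between 0.528 and 0.894. Their intervals leave room for sizeable differences in either direction: the log2 difference was 0.83 (-0.87 to 2.54) for BC100530, 0.50 (-0.89 to 1.89) for Stfa1, 0.50 (-0.91 to 1.91) for Stfa2l1 and 0.18 (-1.24 to 1.59) for Stfa3. The error behind these intervals comes from all 12 libraries, TBI and TBI+DEIX included, and with the 6 compared libraries alone the SE of the sum was 0.41 in place of 0.63 and 0 members were called. BC117090, which met the filter through libraries where it is high, differed by 0.44 and is given with no test. Without DEIX replicate 2 the differences were 0.90 for Stfa2, 0.21 for BC100530, 0.17 for BC117090, 0.03 for Stfa1, -0.05 for Stfa2l1 and -0.35 for Stfa3. Stfa2 and BC117090, 2 of 6 members, were higher in each DEIX than in each control library, against 23.4% of all tested genes. The sum differed by 0.53 (SE 0.63), and by -0.01 without DEIX replicate 2.

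Set against DEIX alone, where 2.57% of all tested genes were called, the stefins differed unevenly. The sum differed by 1.52 on the log2 scale (SE 0.63), BC100530 by 3.25 (SE 0.74), Stfa3 by 2.91 (SE 0.61) and Stfa2 by 2.72 (SE 0.61). Stfa2l1 differed by 0.67 (SE 0.61), and DEIX replicate 2 at 878 FPKM exceeded 2 of the 3 TBI+DEIX libraries. That difference was 0.09 without TBI+DEIX replicate 3 and 1.41 without replicate 1. The sum overlapped between these groups as well, with DEIX replicate 2 at 1148 FPKM above TBI+DEIX replicate 1 at 567 FPKM, and its difference was 0.85 without TBI+DEIX replicate 3 and 2.25 without replicate 1. In all, 4 of the 6 genes did not overlap between these groups, Stfa1 and Stfa2l1 being the others, against 8.72% of tested genes. Compared with control, 5 of 6 were higher in each TBI+DEIX library, against 23.9% of tested genes, and Stfa2l1 overlapped. In that comparison 30% of tested genes were called. The log2 differences from control were 4.26 (SE 0.61) for Stfa2, 4.09 (SE 0.74) for BC100530, 3.08 (SE 0.61) for Stfa3, 2.73 (SE 0.60) for Stfa1, 2.22 (SE 0.38) for BC117090 and 1.17 (SE 0.61) for Stfa2l1. Without TBI+DEIX replicate 3 the Stfa2l1 difference from control was 0.59, and without replicate 1 it was 1.91. Both comparisons share the TBI+DEIX libraries with the contrast that chose the genes. Cell type lists differed from control as well. The erythroid sum was 501 to 2174 FPKM in TBI+DEIX and 4388 to 6451 FPKM in control. B cell sums were 8.30 to 192 and 419 to 503 FPKM. The T and NK cell, megakaryocyte, eosinophil and stroma lists were also lower without overlap, and the secondary granule list higher. The mature neutrophil, promyelocyte and monocyte sums overlapped. The part of these cell types was not tested.

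Correlations between members were high. Over the 12 libraries, which share groups and therefore treatment, Pearson's r between members on the log2 scale ran from 0.756 to 0.986 over 15 pairs, with a median of 0.953. The highest was between Stfa1 and BC100530, whose coding sequences are also the most alike, and the lowest between Stfa2l1 and BC100530. Stfa2 and Stfa2l1, near-identical in sequence, had 0.781. The pair at the plus-strand end, Stfa2l1 and Gm5483, had 0.944. Gm5483 measured 68.2, 662 and 1292 FPKM in TBI+DEIX, and its replicate 1 value was below each control library (144, 169 and 230 FPKM). In that library the Stfa2l1 and Gm5483 levels were 0.803 and 0.376 times their control means, while Stfa2 was at 10.1, BC100530 at 5.34, BC117090 at 4.58, Stfa3 at 3.53 and Stfa1 at 2.49 times.

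**Figure D4:**
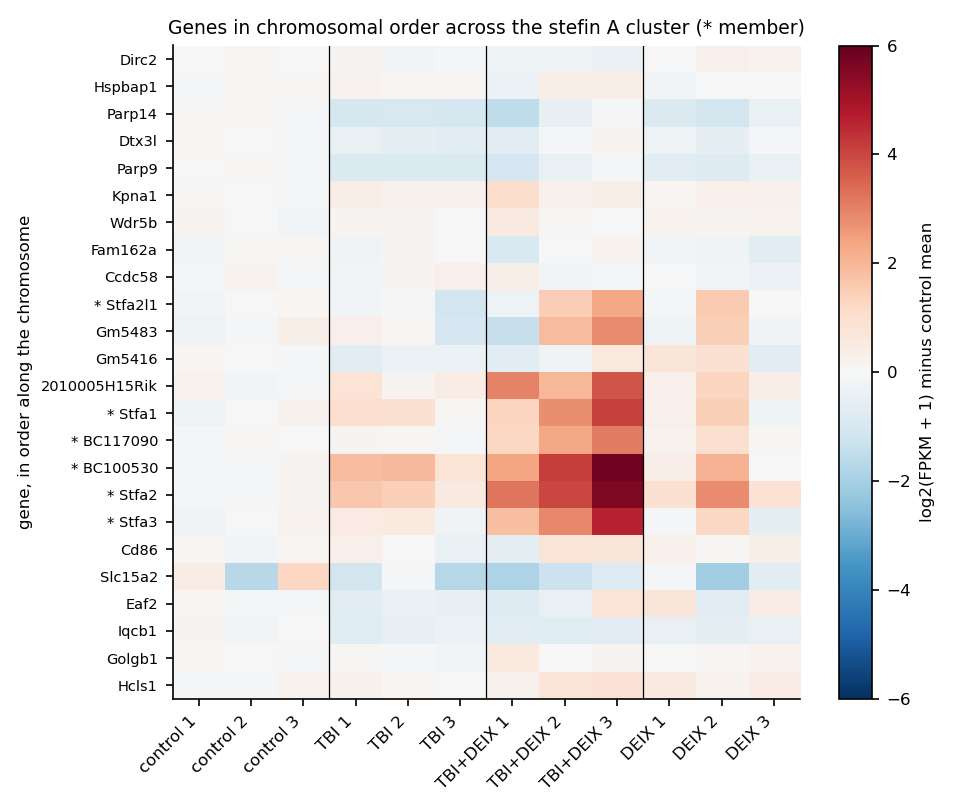
Tested genes of the stefin A cluster and of 500 kb on either side in chromosomal order (vertical), with log2(FPKM + 1) minus the control mean as colour in each of the 12 libraries (horizontal). The 6 members, Gm5483 and 2010005H15Rik are above control in TBI+DEIX replicates 2 and 3, and in replicate 1 Stfa2l1 and Gm5483 are not. Gm5416 differs from them, at 0 FPKM in TBI+DEIX replicate 1 and 0.347 FPKM in replicate 2, below each control library.

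A further stefin gene, 2010005H15Rik (chr16:36221468-36257444, plus strand), lies between Gm5483 and Stfa1 and is not a member. It measured 0.537, 0.201 and 0.267 FPKM in control, 1.37, 0.477 and 0.829 FPKM in TBI, and 9.52, 4.34 and 16.9 FPKM in TBI+DEIX. DEIX replicates 1 to 3 had 0.624, 2.21 and 0.754 FPKM. Each TBI+DEIX library thus lay above the other 9 libraries. The gene met the filter on low values only through the TBI+DEIX libraries with TBI replicate 1 and DEIX replicate 2, so its log2 differences of 2.43 from TBI, 2.92 from control and 2.26 from DEIX (SE 0.39 each) are given with no test. Gm5483 and the weak Gm5416 were not called by limma in any of the 5 comparisons, and Csta1 stayed under 1 FPKM everywhere. Gm5483 shares 35.6% of its 50-base stretches with 2010005H15Rik.

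Around the cluster 15 genes within 500 kb on either side were tested. By limma 0 of them were called in TBI+DEIX against TBI (2 at an unadjusted p under 0.05), where 8.1% of all tested genes were, and 0 against DEIX (1 at an unadjusted p under 0.05), where 2.57% were. Against control TBI had 2 of 15 called (3.99% of all tested genes), TBI+DEIX 3 (30%) and DEIX 1 (7.24%). Iqcb1, a ciliary protein gene, was lower in TBI+DEIX against control (log2 difference -0.68, adjusted p = 0.00213), and each omission of 1 library kept that call. It was also called lower in TBI (-0.52, adjusted p = 0.0329) and in DEIX (-0.47, adjusted p = 0.037), calls that were kept in 1 and 0 of the 6 omissions. Parp9, an interferon-induced ADP-ribosyltransferase, was lower in TBI against control (-0.85, adjusted p = 0.0249), a call that each omission lost (adjusted p 0.074 to 0.107). Hcls1, a cytoskeletal adaptor of blood cells, was higher in TBI+DEIX against control (0.63, adjusted p = 0.0174), a call lost in 4 of the 6 omissions (adjusted p up to 0.0671). Kpna1, a nuclear import receptor, was higher there too (0.55, adjusted p = 0.0338), but 1 library carried much of it: TBI+DEIX replicate 1 had 43.9 FPKM and replicates 2 and 3 had 24.9 and 26.8 FPKM, and without replicate 1 the difference was 0.31 (adjusted p = 0.0256). Leaving out any 1 control library lost the Kpna1 call (adjusted p 0.0634 to 0.108).

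The proteases that stefins inhibit, the papain-like cathepsins, formed a list of 11 tested genes together with Lgmn, the gene of legumain, a cysteine protease of another family. In TBI+DEIX against TBI 1 of the 11 was called, beside 8.1% of all tested genes. That gene was Lgmn (log2 difference 0.42, limma adjusted p = 0.0203), and 5 of 14 alternatives lost its call, among them those without TBI or TBI+DEIX replicate 3. The list's median difference was 0.05, beside 0.003 over all tested genes. Ctss, the gene of the myeloid cathepsin S, measured 137 ± 14.4 FPKM (SD, n = 3) in TBI and 152 ± 73.1 FPKM in TBI+DEIX, and Ctsb, of cathepsin B, 121 ± 15.6 and 121 ± 20.9 FPKM. In TBI against control 3 of the 11 were called. Ctsk, the gene of the osteoclast protease cathepsin K, was higher (1.84, adjusted p = 0.00554), while Lgmn (-0.37, adjusted p = 0.034) and Ctso (-0.63, adjusted p = 0.0441) were lower, beside 3.99% of all tested genes called. The Lgmn call there was lost in 9 of 14 alternatives, each omission of 1 library included (adjusted p up to 0.531). Ctsk was also higher in TBI+DEIX against control (1.64, adjusted p = 0.00223) and against DEIX (1.62, adjusted p = 0.0186, a call lost in 3 of 13 alternatives, 2 of them without DEIX replicate 1 or 3), and Ctso was lower in TBI+DEIX against control (-0.58, adjusted p = 0.015). Ctsk was at 6.39 FPKM in TBI+DEIX, against 7.32 FPKM in TBI and 1.34 FPKM in control. In DEIX against control limma called 0 of the 11, and 2 had an unadjusted p under 0.05.

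Of 14 other cystatins listed, 3 were tested: Cstb (stefin B, the ubiquitous relative), Cst3 (cystatin C, which is secreted) and Cst7 (cystatin F, of lysosomes of immune cells). By limma 0 were called in each of the 5 comparisons, and at most 1 had an unadjusted p under 0.05, in TBI+DEIX against control and against DEIX. Cst3 measured 390 ± 29.4 FPKM in TBI and 398 ± 194 FPKM in TBI+DEIX, and Cstb 51.5 ± 12.01 and 55.9 ± 28.1 FPKM (SD, n = 3). A further list was drawn up as serine protease inhibitors of myeloid cells, a name that does not establish the target of each gene. Of its 8 tested genes 2 rose in TBI+DEIX against TBI, beside 8.1% of all tested genes called. These were Serpina3g, an intracellular inhibitor (log2 difference 1.53, adjusted p = 0.0108), and Pi16 (0.62, adjusted p = 0.0436). The Pi16 call was lost in 8 of 14 alternatives (adjusted p up to 0.193) and that of Serpina3g in 2, which were the fit without TBI replicate 3 and the fit with the 6 compared libraries alone. With those 6 libraries alone limma called 0 genes of the whole table in this comparison, although 2015 had an unadjusted p under 0.05. In DEIX against control, where 7.24% of all tested genes were called, Pi16 rose too (0.73, adjusted p = 0.0284), as did Wfdc17 (2.37, adjusted p = 0.0447), a small whey-acidic-protein-type gene of myeloid cells. These calls were lost in 6 of 14 alternatives for Pi16 and in 8 of 14 for Wfdc17 (adjusted p up to 0.116 and 0.16). Serpina3g fell in TBI against control (-1.07, adjusted p = 0.0205), a call lost in 5 of 14 alternatives (adjusted p up to 0.0974). Slpi, the secreted inhibitor of neutrophil elastase, ranged from 157 to 3855 FPKM among TBI+DEIX libraries and was not called.

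Since neutrophils are a known source of stefins, a list of 22 mature neutrophil genes was set beside them. Its summed level was 0.774 to 1.14 times the control mean in TBI, 0.716, 2.18 and 1.91 times in TBI+DEIX replicates 1 to 3, and 1.18 to 1.33 times in DEIX. Retnlg weighs most in this sum, with a mean of 7863 FPKM in control and 2148 to 18070 FPKM among TBI+DEIX libraries. List genes did not all move with it. Mmp9 was at 1157 to 1612 FPKM in TBI+DEIX and 663 to 725 FPKM in control, but Ccl6 at 50.9 to 401 and 398 to 421 FPKM. The sum, and percentages taken of it, thus depend much on Retnlg. The stefin sum in the same TBI+DEIX libraries was 1.53, 4.42 and 10.6 times its control mean. In DEIX replicate 2, where the stefin sum was 3.09 times control, the neutrophil list was at 1.18 times, the lowest of the DEIX group. Expressed as a percentage of the neutrophil sum, the stefins made 2.51% to 2.78% in control, 2.08% to 3.46% in TBI, and 5.64%, 5.34% and 14.7% in TBI+DEIX. In DEIX replicates 1 to 3 they made 1.99%, 6.91% and 1.97%. The 3 TBI+DEIX libraries and DEIX replicate 2 thus had the highest percentages of the 12. The part of neutrophil number in the stefin levels was not tested.

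**Figure D5:**
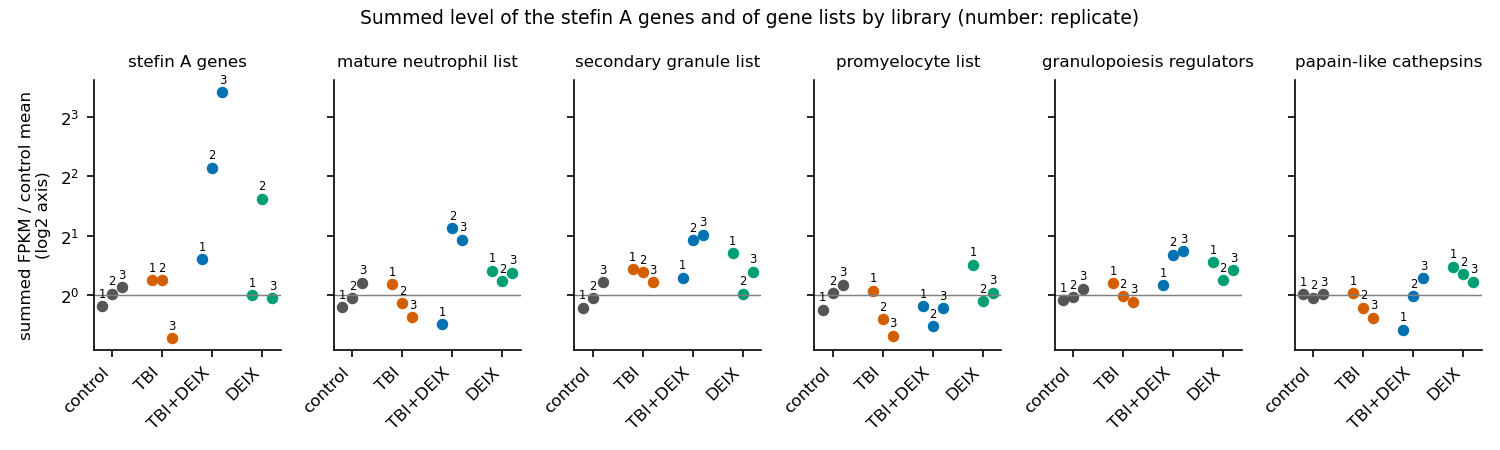
Summed FPKM of the stefin A genes and of 5 gene lists divided by the control mean (vertical, log2 axis) by group (horizontal), with 1 numbered point per library. The stefin genes reach 10.6 times control in TBI+DEIX replicate 3, while the mature neutrophil list stays between 0.716 and 2.18 times in TBI+DEIX.

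In TBI+DEIX against TBI the test called 6 of the 22 neutrophil genes, each as higher, beside 8.1% of all tested genes, and the list's median log2 difference was 0.64. Among them were Il1r2, the decoy receptor for interleukin 1 (2.15, adjusted p = 0.0146), and Lrg1, a glycoprotein of neutrophil granules (1.51, adjusted p = 0.017). With TBI replicate 3 left out 0 were called, with TBI+DEIX replicate 3 left out 1, with TBI replicate 2 left out 2, with TBI+DEIX replicate 2 left out 3, and with TBI+DEIX replicate 1 left out 21. In DEIX against control 6 were again called, each as higher, beside 7.24% of all tested genes, among them Il1r2 (1.76, adjusted p = 0.0168) and Lrg1 (1.43, adjusted p = 0.0129). Il1r2 and Lrg1 lost their calls there in 4 and 2 of 14 alternatives, all of them omissions of 1 library, and in TBI+DEIX against TBI in 2 and 3. Of the list, 0 to 2 were called when any library of these groups but DEIX replicate 2 was left out. In TBI against control limma called 0 of 22, with 1 at an unadjusted p under 0.05. Other cell types differed here as well: the summed level of 12 B cell genes was 419 to 503 FPKM in control and 66.4 to 104 FPKM in DEIX, with 2 genes called lower, and that of 16 monocyte and macrophage genes 2353 to 2407 and 2685 to 3035 FPKM, with 2 called higher and 3 lower. Neither sum overlapped between those groups. Those of 10 megakaryocyte and platelet genes (119 to 183 and 66.7 to 118 FPKM) did not overlap either. The sum of 8 stroma, bone and endothelium genes was lower too (29.0 to 35.0 and 12.4 to 21.3 FPKM). The erythroid, T and NK cell, and eosinophil, basophil and mast cell sums overlapped. The part of these cell types in the DEIX values was not tested. The secondary granule list had 1 of 12 called higher in TBI+DEIX against TBI and 3 of 12 in DEIX against control, counts that ran from 0 to 7 and from 0 to 4 with 1 library left out, the 7 without TBI+DEIX replicate 1. The promyelocyte list had 0 of 12 called by limma in either, with 1 and 0 at an unadjusted p under 0.05.

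Regulators of granulocyte formation formed a further list of 15 genes. In TBI+DEIX against TBI 5 were called higher and 1 lower, beside 8.1% of all tested genes called. By the library left out, the count of 6 became 1 (TBI replicate 3), 2 (TBI+DEIX replicate 3) or 10 (TBI+DEIX replicate 1). Socs3, a feedback inhibitor of cytokine signalling, went from 4.02 to 5.67 FPKM in TBI to 18.1 to 28.8 FPKM in TBI+DEIX (log2 difference 1.98, adjusted p = 0.00411). Stat3, which transmits the signal of the G-CSF receptor, went from 57.1 ± 8.43 to 103 ± 5.86 FPKM (SD, n = 3, log2 difference 0.85, adjusted p = 0.0108). Csf2rb, the shared chain of the GM-CSF receptor, rose by 1.19 (adjusted p = 0.0177), with Junb and Spi1. Irf8, which favours monocytes over granulocytes, fell (-1.03, adjusted p = 0.024). Of 14 alternatives each, these calls were lost in 1 for Socs3, 3 for Stat3, 4 for Csf2rb and 4 for Irf8, in each gene with the 6 compared libraries alone, and without TBI replicate 3 for all but Socs3. Csf2rb and Irf8 also lost theirs without TBI+DEIX replicate 3, and Irf8 without TBI replicate 1. In DEIX against control Socs3 (1.36), Stat3 (0.76) and Csf2rb (1.07) were called higher, with adjusted p of 0.00753, 0.00753 and 0.019, beside 7.24% of all tested genes called. The Csf2rb call was lost in 6 of 14 alternatives (adjusted p up to 0.0912), 5 of them omissions of 1 library, and that of Stat3 in 1. Socs3 was higher in each of the 3 DEIX libraries (12.9 to 22.3 FPKM) than in each control library (4.65 to 6.49 FPKM). A link between these genes and the stefins was not tested.

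Across the 12 libraries the named, non-predicted genes whose log2 level was most like the stefin A sum were Cfb (r = 0.949), Errfi1 (0.928), Ccl8 (0.903), Rab7b (0.894), Anks3 (0.884), S100a6 (0.880), Rabggta (0.880), Exoc7 (0.877), Kremen1 (0.875) and Slc11a1 (0.875). Cfb, complement factor B, measured 1.42 to 1.45 FPKM in control, 0.698 to 1.24 in TBI, 3.25 to 9.44 in TBI+DEIX and 1.32 to 3.62 in DEIX. S100a6, a calcium-binding protein, was the most abundant of them, at 1012 to 1563 FPKM in control and 1160 to 4213 FPKM in TBI+DEIX. Slc11a1, the phagosomal metal transporter Nramp1, reached 57.6 FPKM in DEIX and 61.2 FPKM in TBI+DEIX, beside 34.4 FPKM at most in control. Some of these genes lie near the floor. Errfi1 stayed at 0.757 to 2.49 FPKM over all libraries. Ccl8 was at 0 to 0.599 FPKM in TBI and 1.57 to 6.30 FPKM in TBI+DEIX, the 1 group wholly above 1 FPKM. The 6 members were left out of this ranking. Among mature neutrophil genes r was 0.701 for Mmp9, 0.650 for Cxcr2, 0.523 for Retnlg and 0.478 for Csf3r, and among granule genes 0.503 for Ltf, 0.360 for Camp, -0.377 for Elane and -0.478 for Mpo. These values describe 12 libraries that share treatments and carry no test.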

How the data were processed

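Gene expression was measured in 12 libraries of whole mouse bone marrow, prepared with MGI's strand-specific mRNA kit, per the labels' protocols. The deposited table holds FPKM that the authors computed. The submitters' processing notes name STAR 2.6, Cufflinks 2.2.1 and the mm10 build, with no role or order. The annotation, the handling of reads that fit several copies, and read totals are not given in the sources used here. FPKM of short transcripts also depends on the assumed fragment length, which was not given. Identifiers were matched to GENCODE vM21, and all 21853 matched.

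Values were analysed as log2(FPKM + 1). This scale understates differences of low genes. Genes with at least 1 FPKM in at least 3 libraries entered 1 linear model of 4 group means over 12 libraries (limma 3.58.1, R 4.3.3, moderated with an intensity trend, 8 residual degrees of freedom). Calls required a p under 0.05 after Benjamini-Hochberg adjustment over the 10994 tested genes. S100a8, S100a9 and Ngp, listed at 0 in some libraries, were left out of list values. The fit was tested on simulated data. Members and gene lists were chosen with earlier results of these data known. Named genes were the 6 members, list genes called or among the 4 most abundant, the 10 genes most like the sum, and genes within 500 kb. Replicate numbers did not pair the samples. Alternatives covered the added constant, filters, scaling, libraries in the fit, a replicate block, array weights and left-out libraries. Sequences and identities were computed with Biopython 1.88 from GENCODE transcripts and RefSeq windows.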

Additional observations from a re-analysis of the deposited data

How the results depend on the processing

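The sums, members and counts described above were recomputed under each alternative. A sum counted as kept where its direction held and it shifted by less than its within-group SD (0.895), with no call involved. The count of called members had to stay the same. Of these values 84 were kept, 4 reversed and 1 moved. Single members were judged like the sums, by their own SD, except in DEIX against control, where direction and call were compared. Among their values 406 were kept, 5 reversed, 3 moved and 1 gained a call. With limma's array weights the TBI-against-control sum turned to 0.0943, BC117090 in that comparison to -0.0130 and Stfa3 in DEIX against control to -0.0654, while Stfa2 in DEIX against control was called (1.36, adjusted p = 0.0171, range over its alternatives 0.0171 to 0.336), the 1 member called there. With 0.1 FPKM added, BC117090 moved to 3.13, 3.204 and 2.39 for TBI+DEIX against TBI, control and DEIX. Leaving out 1 library at a time, the sum ranged from 1.44 to 2.84 for TBI+DEIX against TBI, 1.38 to 2.78 against control and 0.85 to 2.25 against DEIX, from -0.23 to 0.26 for TBI against control (0.0090 without control replicate 3, 0.257 without TBI replicate 3), and from -0.0149 to 0.82 for DEIX against control. Under the same omissions DEIX against control ranged from -0.0466 to 0.78 for Stfa2l1 and from -0.349 to 0.55 for Stfa3, both lowest without DEIX replicate 2, and TBI against control from -0.0291 to 0.12 for BC117090. With Gm5483 added to the sum, chosen after seeing the data, the 5 differences were 1.95, -0.11, 1.84, 1.38 and 0.46 in the order of TBI+DEIX against TBI, TBI against control, TBI+DEIX against control, TBI+DEIX against DEIX and DEIX against control.

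The members had no call to lose outside DEIX against control. For 11 genes outside the family followed through the alternatives, 334 values kept their call and 83 lost it. Against 891 genes called in TBI+DEIX against TBI, 0 were called with the 6 compared libraries alone (2015 at an unadjusted p under 0.05), 157 on the TPM scale, 4488 with array weights, 474 with the replicate block, and, by the library left out, 5 (TBI replicate 3), 51 (TBI+DEIX replicate 3) or 2836 (TBI+DEIX replicate 1). In DEIX against control 796 became 282 on the TPM scale, 2057 with the compared libraries alone and 4508 with array weights, and 146 to 938 with a library left out. The TPM scale moved the median of all genes by -0.12 and -0.14 in these comparisons and the share of higher calls from 57.9% to 34.4% and from 62.4% to 19.1%. The called genes of the mature neutrophil list numbered 0 to 21 and 0 to 17 over the alternatives.

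Replicate numbers did not pair the samples: same-numbered libraries of different groups correlated at -0.45 to 0.24 in their deviations from group means. With the number as a block the sum for DEIX against control stayed at 0.53 and 0 members were called, and 640 genes were called in all. Read totals are not known here, and BC117090 was under 1 FPKM in 8 libraries.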
